A study of Mus musculus with 56 samples.

Results

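Liver RNA was examined here for 8 genes of thyroid hormone signalling in 12 mouse libraries. They were the thyroid hormone receptors (TRs) Thra and Thrb, the retinoid X receptors (RXRs) Rxra, Rxrb and Rxrg, and the classic T3-responsive genes Klf9, Hr and Bcl3. They were chosen by name from 23813 genes in the deposited table, and the transcript listed first stood for a gene with several rows. All 8 were in the table. All groups were male mice kept for 16 days on food low in iodine and holding 0.15% PTU (propylthiouracil, an inhibitor of thyroid hormone synthesis). Hypothyroid wildtype (WT) mice received vehicle (4 libraries). Hyperthyroid WT mice received PTU and 5 micrograms of T3 by injection over the last 4 to 6 days (4 libraries). Hypothyroid L-NCOR1ΔID mice received PTU and vehicle (4 libraries) and carried a liver-specific mutant of the corepressor NCOR1 that lacks TR interaction domains, on a mixed strain background. The promoter that drives the liver deletion is not given in the sources used here. No strain background is stated for the WT mice compared with this mutant. Over all its animals, the study lists a lower mean age for L-NCOR1ΔID than for hypothyroid and hyperthyroid WT mice, with overlapping spreads. The ages behind these libraries are not given, and the part of age or strain in the mutant comparisons was not tested. No T3-treated mutant liver is among the study's samples. The study's methods call the 4 libraries of a group biological replicates.

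TRs are nuclear receptors that bind DNA mostly as heterodimers with an RXR, on repeats of the sequence AGGTCA spaced by 4 bases (a DR4 element). Without hormone, TR recruits corepressors such as NCOR1 together with histone deacetylase 3, and T3 exchanges them for coactivators. In hepatocytes TRβ, the product of Thrb, is known as the main TR, while TRα prevails in heart and bone. Klf9 encodes a Krüppel-like transcription factor, Hr encodes the JmjC-domain corepressor Hairless, and Bcl3 encodes an atypical IκB protein that acts with NF-κB subunits in the nucleus.

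Levels are given as RPKM, read numbers scaled by transcript length and by the aligned reads of the library, which can be compared between genes. Relative to hypothyroid WT replicate 1, the depth of the libraries ranged from 0.682 to 1.36, estimated from the spacing of the lowest values, and all 4 hyperthyroid libraries were the shallowest at 0.682 to 0.833. Hepatocyte markers were present throughout, with a summed level of 19616 to 49952 RPKM. In Ncor1, the level was 14.1 to 15.6 RPKM in hypothyroid WT and 12.1 to 13.9 in L-NCOR1ΔID libraries. The value covers the whole transcript and so does not check the deletion. The known T3 targets checked the treatment labels, since Thrsp, a lipogenic regulator, was at 209 to 490 RPKM in hypothyroid and 847 to 2360 in hyperthyroid WT, and Dio1, the type 1 deiodinase, at 0.719 to 57.7 and 459 to 641 RPKM. The highest hypothyroid value of Dio1, 57.7 RPKM, was that of replicate 3 against 0.719 to 8.98 in the other libraries of the group. The same replicate held the highest hypothyroid WT level of 6 of the 8 genes (Thrb, Rxra, Rxrb, Klf9, Hr and Bcl3). The share of all genes that were highest in that replicate was not counted. Thrsp was highest in hypothyroid WT replicate 2 (490 RPKM) and stood at 352 RPKM in replicate 3. The cause was not tested.

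The loci were set against the deposited list of 37200 liver regions with acetylated histone H3 (H3K9Ac or H3K27Ac), which gives positions only (mm9) and is a union over hypothyroid and hyperthyroid WT liver. The start site of the longest coding GENCODE transcript lay inside an acetylated region for 5 of the 8 genes, against 58.1% of 18604 genes with a position. For Rxra (chr2:27531960-27618477, plus strand) that region spanned 37405 bp, for Klf9 (chr19:23215716-23241401, plus strand) 22325 bp, for Bcl3 (chr7:20393811-20408119, minus strand) 12756 bp, for Rxrb (chr17:34168757-34175338, plus strand) 10664 bp and for Thra (chr11:98601952-98630320, plus strand) 8366 bp. Over all genes with their start in a region, its median length was 3856 bp, and the upper quartile was 6900 bp. All 5 regions were therefore longer than the upper quartile. The centre of the region at the Rxrb start lay in an exon of the neighbouring gene Slc39a7, so its length is not that of Rxrb alone. No region held the start of Hr (chr14:70952019-70973355, plus strand), where the nearest lay 6843 bp away, of Thrb (chr14:18493474-18870602, plus strand; nearest 1452 bp) or of Rxrg (chr1:169528515-169569754, plus strand; nearest 18865 bp). The start used for Thrb, position 18814158, is internal to the gene, and the 4 regions upstream of it lay in Thrb introns. Within 100 kb of the start there were 14 regions at Bcl3, 13 at Thra, 10 at Rxrb, 10 at Hr, 6 at Rxra, 6 at Klf9, 5 at Thrb and 1 at Rxrg, against a median of 6 and quartiles of 2 and 9 over all genes.

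Those regions were searched on both strands for DR4 elements, and matches at 11 or 12 of the 12 bases of the AGGTCA repeats were kept. Such a match lay near 4 of the 8 genes, namely 3 at Bcl3, 2 at Klf9, 2 at Thra and 1 at Rxra, and 23.7% of all genes had one in a region within 100 kb. The rate was 16.4 matches per Mb over the 488 kb of regions at the 8 genes and 12.6 per Mb over all deposited regions. A match is a description of sequence and not a binding site, and the lack of one says only that these letters are not in the regions searched. All 8 matches are printed, so that the sequences near Klf9 and Bcl3 can be read beside those near Thra and Rxra. Each is shown 5′ to 3′ with 7 flanking bases on either side, in lower case with the AGGTCA repeats in capitals, as read from the mm9 genome.
Klf9, chr19:23211946-23211975, plus strand: ctgggagAGGTGAagtgAGGTCAcagatct
Klf9, chr19:23136864-23136893, plus strand: gggggaaAGGTCAtggaAAGTCAgtctaag
Bcl3, chr7:20377837-20377866, minus strand: ctctttcAGGTCAgggaAGGTCAcggcagg
Bcl3, chr7:20370645-20370674, minus strand: acaggagAGGCCAacggAGGTCAggactgc
Bcl3, chr7:20449776-20449805, minus strand: gagagcaAGGTGAggtaAGGTCAcagttga
Thra, chr11:98545994-98546023, plus strand: cccaccaAGGCCAaaagAGGTCAtctgatc
Thra, chr11:98643033-98643062, minus strand: gtacagcAGGACAggagAGGTCAgcgtgac
Rxra, chr2:27448174-27448203, plus strand: gctgggaAGGTCAgagcAGGTCTgccataa

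The match at chr7:20377837-20377866 was the one that fitted all 12 bases. It lay in an intron of the neighbouring gene Cblc, 30268 bp downstream of the Bcl3 start, in an acetylated region of 8967 bp. A match at all 12 bases was found in 102 of the 37200 regions (0.274%), and 1.46% of all genes had one within 100 kb. The nearest match to any start was that of Klf9 at 3756 bp upstream, inside the region that also held the start. Among the 500 regions nearest in length to that one, 22.4% held a match at 11 or 12 bases, against 4.48% of all regions. The other Klf9 match was intergenic at 78838 bp upstream. Of the other Bcl3 matches, that at 37460 bp downstream lay in an exon of Cblc and that at 41671 bp upstream was intergenic. Those of Thra lay in an intron of Psmd3, 57117 bp upstream, and in intergenic sequence 39922 bp downstream, and that of Rxra was intergenic, 84533 bp upstream. No match at 11 bases was found in the 10 regions of Hr, the 10 of Rxrb, the 5 of Thrb or the region of Rxrg.

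**Figure D1:**
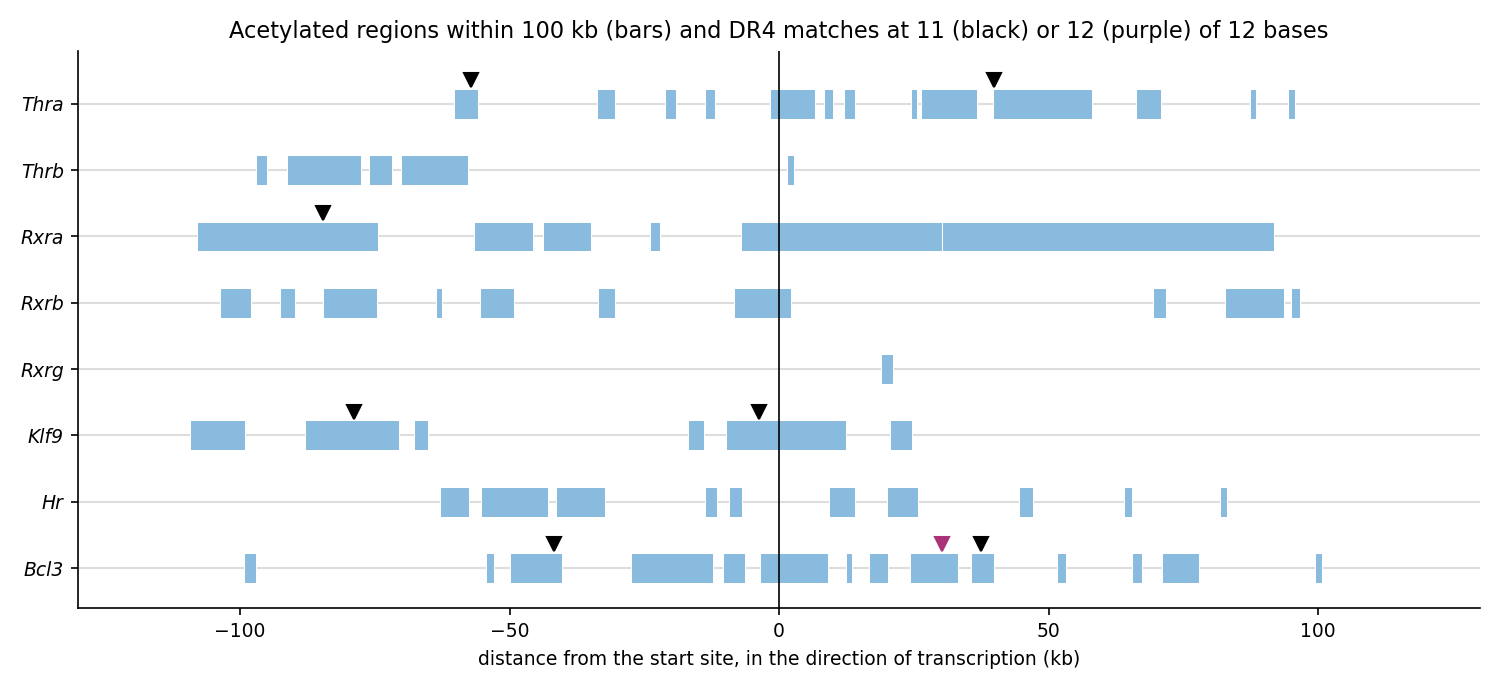
Deposited acetylated regions (bars) within 100 kb of the start site of each gene, by distance in kb in the direction of transcription, with DR4 matches as triangles (black for 11 and purple for 12 of 12 bases). The longest bars lie over Rxra, the Klf9 match nearest the start lies 3756 bp upstream, and Rxrg has 1 region.

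Rxra was by far the most abundant receptor transcript in hypothyroid WT liver, at 89.0 ± 6.32 RPKM (SD, n = 4, as for all groups). Klf9 followed at 24.1 ± 7.65 RPKM, Rxrb at 10.9 ± 0.924 and Thrb at 7.57 ± 0.946. Below them stood Bcl3 at 5.00 ± 3.18, Thra at 3.45 ± 0.507, Rxrg at 2.05 ± 0.316 and Hr at 0.0312 ± 0.0113 RPKM. Neighbours in this order were separated in every library, except that the range of Bcl3 (2.17 to 8.79 RPKM) ran into those of Thrb, Thra and Rxrg. Under T3, Bcl3 moved up to 84.6 ± 50.6 RPKM, where it overlapped Rxra (125 ± 9.23) and Klf9 (53.1 ± 8.54), while Rxrb, Thrb, Thra, Rxrg and Hr kept their order without overlap. In L-NCOR1ΔID libraries Bcl3 (8.13 ± 1.62 RPKM) and Thrb (7.87 ± 1.68) overlapped, and the other neighbours did not.

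Among the TRs, Thrb was above Thra in all 12 libraries. The ratio of Thrb to Thra was 2.24 ± 0.428 in hypothyroid WT, 2.26 ± 0.106 in hyperthyroid WT and 2.28 ± 0.537 in L-NCOR1ΔID liver, with overlapping ranges of 1.63 to 2.59, 2.10 to 2.36 and 1.73 to 3.00. Rxra made up 87.3 ± 0.696%, 87.4 ± 0.723% and 85.3 ± 1.08% of the summed RXR level in the same order of groups. Rxrb made up 10.7 ± 0.439%, 11.2 ± 1.01% and 12.7 ± 1.34%, and Rxrg, an isotype best known from muscle and brain, 2.01 ± 0.322%, 1.40 ± 0.302% and 2.00 ± 0.341%. The RXR sum was 9.29 ± 0.798, 11.4 ± 0.706 and 8.68 ± 1.18 times the TR sum. The hyperthyroid libraries, at 10.41 to 12.10, lay above all other libraries in this ratio, which reached 10.36 in hypothyroid WT and 9.95 in the mutant. These shares are descriptions without a test, and RPKM counts transcripts and not receptor protein.

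**Figure D2:**
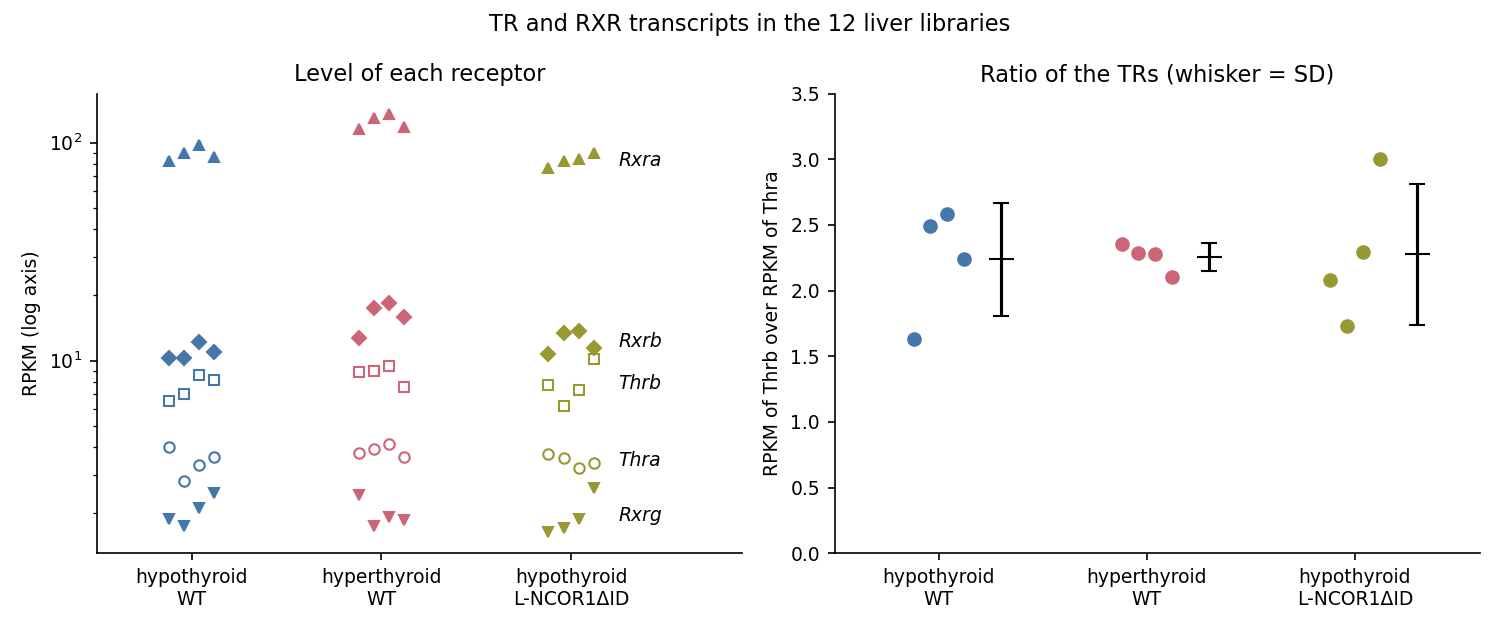
Left, RPKM of the TRs (open symbols) and RXRs (filled symbols) in each library on a log axis, by group. Right, the ratio of Thrb to Thra in each library, with mean and SD, which averages 2.24, 2.26 and 2.28 in the 3 groups.

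T3 against PTU in WT liver asked which of these genes followed hormone. Klf9, Hr and Bcl3 rose, as did Rxra and Rxrb by less, while Thra, Thrb and Rxrg did not pass the test. In all, 5 of the 8 genes were higher and none lower at an adjusted p under 0.01 (limma on log2(RPKM + 0.1), Benjamini-Hochberg over 13941 genes), against 24.5% of all genes tested that were higher and 7.71% that were lower. Hr passed the filter on low values only through the libraries in which it was high, so its count among the called genes supports nothing. How many of all genes had groups that did not overlap was not counted in any comparison. The median of all genes tested was shifted by 0.23 on the log2 scale. When libraries were rescaled by the median of gene ratios, that shift fell to 0.040 and the calls over all genes went from 3413 higher and 1075 lower to 1886 higher and 1735 lower.

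Bcl3 was at 2.17, 6.48, 8.79 and 2.59 RPKM in the hypothyroid and at 71.8, 158, 66.9 and 41.8 RPKM in the hyperthyroid WT libraries. The lowest hyperthyroid value was thus far above the highest hypothyroid one, and replicate 2 stood above the rest of its group. The mean was 16.9-fold higher, and the log2 difference was 4.11 (SE 0.51, adjusted p = 0.00026 by limma, 95% interval 2.97 to 5.26).

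Klf9 was at 17.5, 24.7, 34.7 and 19.6 RPKM without and at 41.7, 60.7, 58.4 and 51.6 RPKM with T3. The groups did not overlap, and hypothyroid replicate 3 came closest to the hyperthyroid libraries. The log2 difference was 1.17 (SE 0.21, adjusted p = 0.0017 by limma), and without that hypothyroid library it was 1.36.

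Hr was barely detected in hypothyroid WT liver, at 0.017, 0.035, 0.044 and 0.029 RPKM, and stood at 0.711, 0.661, 0.599 and 0.531 RPKM after T3. Even the induced level remained below that of any other gene of the set. The ratio of means was 20.0 in RPKM, whereas the difference on the log2(RPKM + 0.1) scale was 2.46 (SE 0.17), since the added 0.1 exceeded the hypothyroid values. The adjusted p of 1.3e-05 by limma rests on a filter that Hr passed only where it was high. An exact two-sided permutation test of 4 against 4 libraries gave p = 0.029, the smallest it can give, or 0.043 adjusted over the 3 comparisons of Hr. The markers of skin, where Hairless is best known, summed to 0.509 to 0.691 RPKM in hypothyroid and 0.752 to 0.958 RPKM in hyperthyroid WT libraries, and 2 of the 3 (among Krt5, Krt14 and Krt10) averaged under 0.1 RPKM.

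Of the receptors, Rxra was at 82.4, 89.8, 97.3 and 86.4 RPKM in hypothyroid and at 116, 130, 135 and 118 RPKM in hyperthyroid WT libraries. The groups did not overlap, and replicate 3 was the highest library in each. The log2 difference was 0.49 (SE 0.080, adjusted p = 0.0012 by limma), which is 0.25 above the median of all genes, and after rescaling by the median of gene ratios it was 0.28 with an adjusted p of 0.012 by limma, which ended the call.

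Rxrb rose from 10.3, 10.2, 12.2 and 10.9 RPKM to 12.8, 17.5, 18.4 and 15.9 RPKM. The groups were just apart, since hyperthyroid replicate 1 lay near the highest hypothyroid library. The log2 difference was 0.55 (SE 0.12, adjusted p = 0.0047 by limma). It fell to 0.34 with an adjusted p of 0.029 after rescaling, and lost the call in 6 of the 8 fits that left out a library, with an adjusted p of up to 0.015 (hypothyroid replicates 1, 2 and 4 and hyperthyroid replicates 2, 3 and 4). All 4 deposited Rxrb transcripts, whose shared exons do not let reads be told apart, were higher in each hyperthyroid library than in every hypothyroid one.

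Thra was at 4.02, 2.82, 3.32 and 3.63 RPKM without and at 3.75, 3.93, 4.17 and 3.61 RPKM with T3. The groups overlapped, and the log2 difference was 0.17 (95% interval -0.095 to 0.44, adjusted p = 0.25 by limma). The 3′ end of Thra overlaps the clock gene Nr1d1 on the other strand over 1075 bp (chr11:98629246-98630320), and use of strand in counting is not given in the sources used here, so reads in this stretch cannot be told apart. Nr1d1 was itself at 16.9 to 37.9 RPKM in hyperthyroid and 17.4 to 44.2 RPKM in hypothyroid WT libraries. After rescaling, the Thra difference turned to -0.030.

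Thrb was at 6.56, 7.01, 8.59 and 8.13 RPKM without and at 8.84, 8.97, 9.47 and 7.61 RPKM with T3. It overlapped between groups in 1 hyperthyroid library, and the log2 difference was 0.21 (95% interval -0.039 to 0.45, adjusted p = 0.14 by limma). Rxrg, at 1.88, 1.74, 2.12 and 2.46 against 2.41, 1.74, 1.91 and 1.86 RPKM, showed a log2 difference of -0.044 (95% interval -0.37 to 0.28, adjusted p = 0.82 by limma). The upper bounds for Thra and Thrb thus lay above the median shift of all genes, and so did that for Rxrg.

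**Figure D3:**
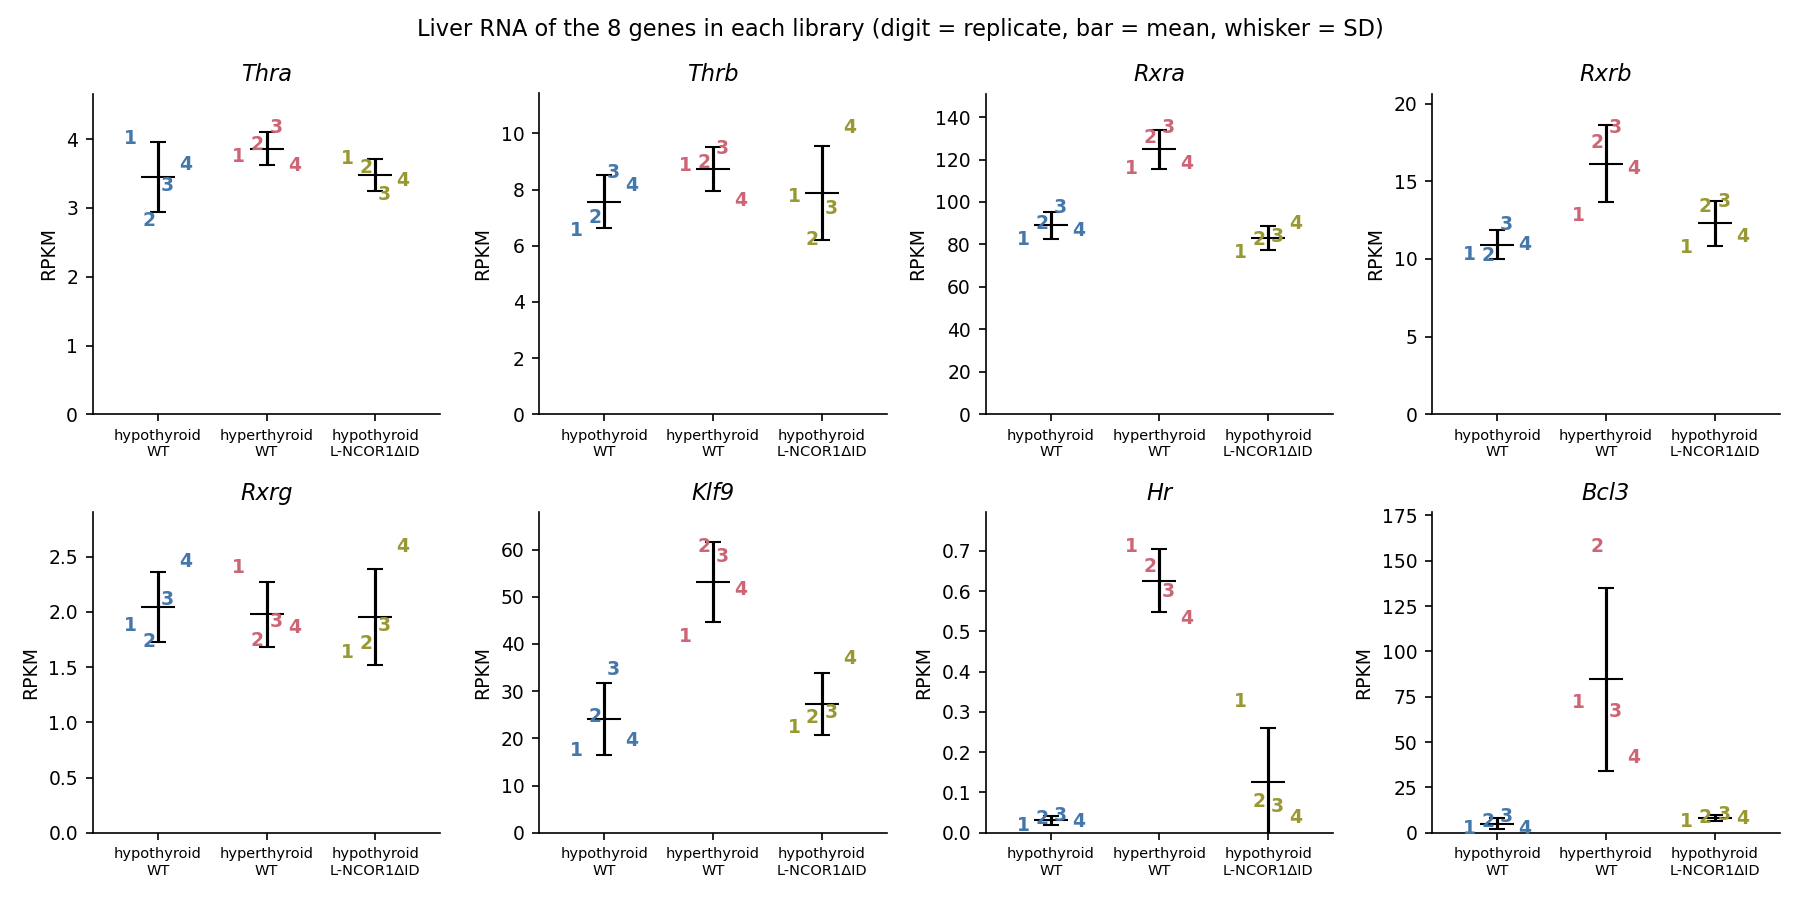
RPKM of each gene by group, with a digit for each replicate, a bar for the mean and whiskers for the SD (n = 4, cropped at 0 for Hr). Bcl3, Klf9, Hr, Rxra and Rxrb separate the hyperthyroid from the hypothyroid WT libraries, and Hr in L-NCOR1ΔID replicate 1 (0.327 RPKM) stands apart from the rest of its group. The share of all genes that separate these libraries was not counted.

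Several marker lists of other cells stood apart between hyperthyroid and hypothyroid WT liver. The summed level of 8 Kupffer cell and macrophage markers was 65.4 to 92.7 RPKM in hypothyroid WT, 202 to 308 RPKM in hyperthyroid WT and 70.3 to 190 RPKM in L-NCOR1ΔID liver, with none at 0 in all libraries. Leukocyte markers summed to 2.04 to 4.78, 5.25 to 22.7 and 1.99 to 4.45 RPKM. Those of skeletal muscle and adipose tissue were uneven and overlapped, at 0.039 to 16.6, 0.089 to 1.84 and 0 to 6.34 RPKM. Stellate cell markers summed to 47.2 to 66.9 RPKM without and 80.1 to 91.0 RPKM with T3, while endothelial (46.2 to 67.4 and 67.3 to 80.7 RPKM) and cholangiocyte markers (11.96 to 16.1 and 10.4 to 19.2 RPKM) overlapped. The hepatocyte sum was 38193 to 49952 RPKM without and 19616 to 28145 RPKM with T3, but its members differed. Alb (-1.16) and Ttr (-1.55) were lower and Hnf4a was higher (0.42, adjusted p = 0.0041 by limma). Cps1 (-0.38), Serpina1c (-0.32), Apoa1 (0.12) and Apob (0.059) were not called. In bulk liver, more cells of a type and more RNA per cell cannot be told apart, and the part of these markers in the T3 results was not tested.

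The comparison of hypothyroid L-NCOR1ΔID with hypothyroid WT liver asked whether loss of NCOR1 binding to TR would raise the genes without hormone. None of the 7 genes that passed the filter was called, in a comparison where 0.725% of 13790 genes were higher and 0.544% lower. At an unadjusted p under 0.05 there was also none among the 7, and 2831 among all genes.

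Bcl3, at 6.31, 8.38, 10.2 and 7.65 RPKM in the mutant, showed the largest difference of the 7. The mutant libraries lay above hypothyroid WT replicates 1 and 4 (2.17 and 2.59 RPKM) and spanned replicates 2 and 3 (6.48 and 8.79 RPKM). The log2 difference was 0.90 (SE 0.41, 95% interval -0.035 to 1.84, adjusted p = 0.26 by limma), and it ran from 0.59 without hypothyroid WT replicate 1 (adjusted p = 0.46 by limma) to 1.25 without replicate 3 (adjusted p = 0.12).

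Klf9 was at 22.3, 24.4, 25.4 and 36.9 RPKM in the mutant, well inside the hypothyroid WT range except for replicate 4. Its log2 difference of 0.20 had an interval of -0.31 to 0.71 (adjusted p = 0.66 by limma), and it ran from 0.044 without mutant replicate 4 to 0.39 without hypothyroid WT replicate 3.

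Hr was at 0.327, 0.077, 0.064 and 0.038 RPKM in L-NCOR1ΔID liver, too low for the fit across genes. Replicate 1 carried most of the group mean, and replicate 4 lay inside the hypothyroid WT range. The difference was 0.64 on the log2(RPKM + 0.1) scale with p = 0.057 in an exact two-sided permutation test of 4 against 4 libraries, where the smallest p is 0.029. Adjusted over the 3 comparisons of Hr the p stayed at 0.057. Without replicate 1 the difference was 0.28 and the ratio of means 1.91 instead of 4.05.

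The receptors gave intervals that all held 0 in this comparison. Rxra was at 76.3, 82.4, 83.8 and 89.6 RPKM (log2 difference -0.099, 95% interval -0.27 to 0.077) and Rxrb at 10.7, 13.4, 13.7 and 11.4 RPKM (0.17, -0.062 to 0.40). Thra was at 3.73, 3.59, 3.20 and 3.39 RPKM (0.022, -0.25 to 0.29), beside Nr1d1 at 18.0 to 62.5 RPKM. Thrb was at 7.76, 6.21, 7.34 and 10.2 RPKM (0.041, -0.30 to 0.39) and Rxrg at 1.63, 1.71, 1.88 and 2.59 RPKM (-0.074, -0.45 to 0.31). All 5 overlapped with hypothyroid WT, at adjusted p-values of 0.39 to 0.94 by limma.

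Hyperthyroid WT was then set against hypothyroid L-NCOR1ΔID liver, groups that differ in genotype and treatment and may differ in age. The question was whether the level without hormone in the mutant differed from that under T3. Here 4 of the 8 genes were higher in hyperthyroid WT and none lower, where 15.5% of 14017 genes were higher and 5.70% lower and the median of all genes was 0.19. Bcl3 differed by 3.21 (SE 0.35, adjusted p = 0.00023 by limma), Hr by 1.83 (SE 0.34, adjusted p = 0.0033), Klf9 by 0.97 (SE 0.17, adjusted p = 0.0028) and Rxra by 0.59 (SE 0.087, adjusted p = 0.0011). The groups were apart in each of them, down to Klf9, whose highest mutant library (36.9 RPKM) lay below the lowest hyperthyroid one (41.7 RPKM). Hr again passed the filter only through its high group and L-NCOR1ΔID replicate 1, so its count among the called genes supports nothing. Its adjusted p ranged up to 0.012 by limma when a library was left out. For Hr, an exact two-sided permutation test of 4 against 4 libraries gave p = 0.029, the smallest it can give. Adjusted over the 3 comparisons of Hr, that p was 0.043. Rxrb, at a difference of 0.38 (95% interval 0.083 to 0.68, adjusted p = 0.047 by limma), overlapped and was not called. Thra (0.15, -0.070 to 0.37), Thrb (0.16, -0.17 to 0.50) and Rxrg (0.030, -0.36 to 0.42) were not called either. The 3 comparisons share libraries, so their values stand side by side and are not independent of each other.

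**Figure D4:**
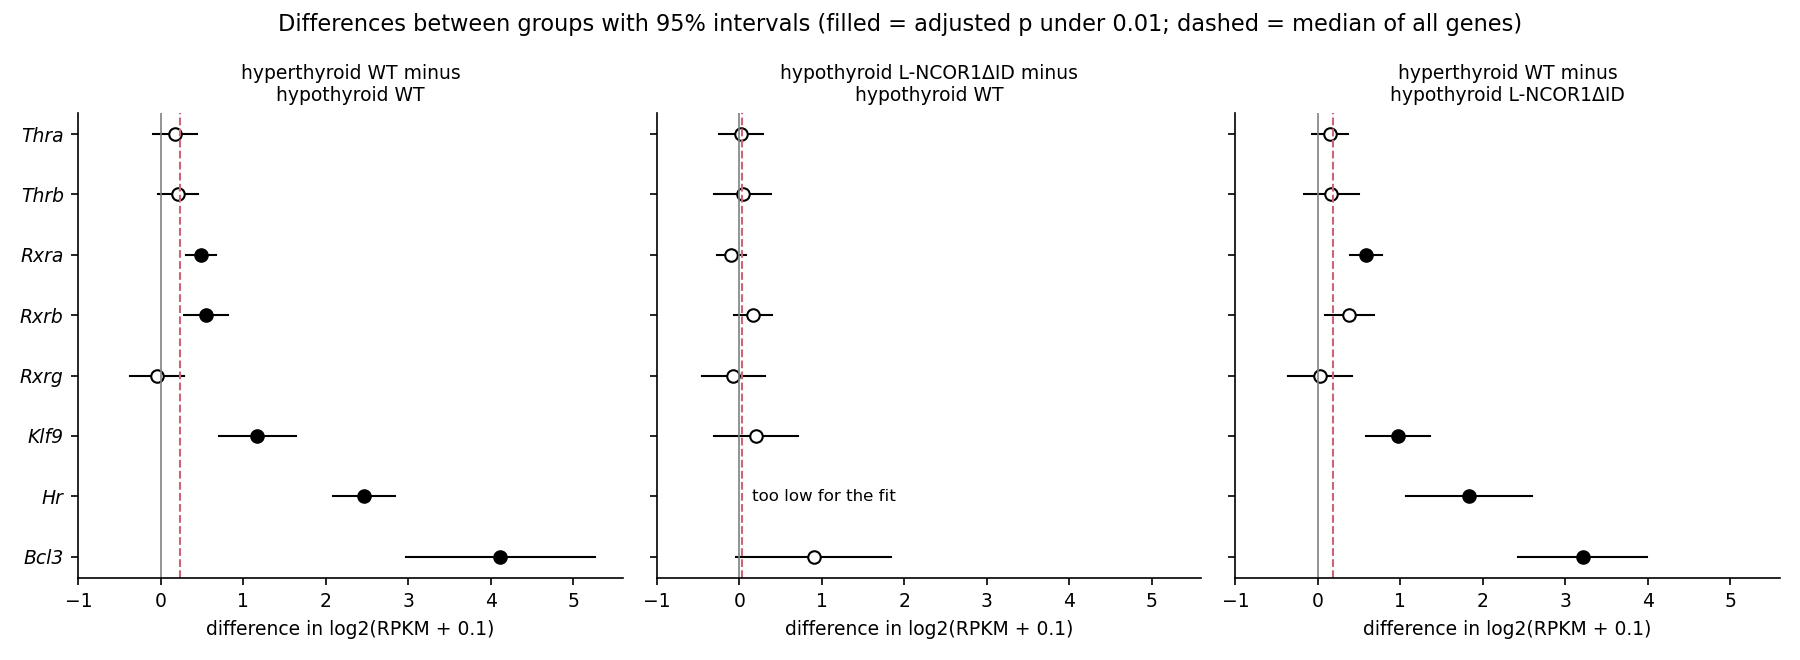
Differences in log2(RPKM + 0.1) of the 8 genes with 95% intervals from limma in the 3 comparisons, filled where the adjusted p was under 0.01, with the median of all genes dashed. The points of Bcl3, Hr, Klf9, Rxra and Rxrb lie to the right of 0 and of the dashed line on the left and right panels. Rxrb is not filled on the right panel, and no interval of the middle panel excludes 0.

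Other genes of the pathway were taken as lists. Of 22 other textbook T3-induced liver genes, 11 were higher and none lower with T3 (median 0.75). Over all genes, 24.5% were higher and 7.71% lower (median 0.23). None of the 22 was called in the mutant (median 0.19), beside 0.725% higher and 0.544% lower among all genes. Differences there were large for some genes, from -3.94 for Fgf21 (adjusted p = 0.012 by limma) to 1.39 for Thrsp (adjusted p = 0.054 by limma). Thrsp was at 454 to 1081 RPKM in the mutant and 209 to 490 RPKM in hypothyroid WT libraries, which overlapped. A lack of calls is thus not a lack of difference. In hyperthyroid WT, 10 of the 22 were higher than in the mutant, beside 15.5% of all genes. With T3, Dio1 led the list with a difference of 6.20, followed by Gpd2, the mitochondrial glycerol-3-phosphate dehydrogenase, at 3.07 and Pdp2, a pyruvate dehydrogenase phosphatase, at 2.81. Of these, Pdp2 was also among the genes most like Bcl3.

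Of 12 coregulators that bind TR, 7 were higher with T3, none was lower, and the median was 0.40, beside 24.5% higher and a median of 0.23 over all genes. Tbl1xr1, a subunit of the NCOR complex, was at 4.16 RPKM in hypothyroid and 7.95 RPKM in hyperthyroid WT liver (log2 difference 0.90, SE 0.14, adjusted p = 0.00089 by limma). The coactivator gene Ncoa1 differed by 0.71. Ncor1 itself differed by 0.13 and was not called.

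Among 14 other nuclear receptor genes that pair with RXR, 13 were tested, of which 3 were higher and 3 lower with T3 (median -0.11), beside 24.5% higher and 7.71% lower among all genes. Ppard rose from 2.13 to 12.9 RPKM (2.51), Rarb from 0.952 to 2.57 RPKM (1.33) and Nr1h2 from 14.4 to 19.6 RPKM (0.45). Nr1i3, the constitutive androstane receptor gene, fell from 173 to 44.4 RPKM (-1.97), Pparg fell from 4.95 to 1.86 RPKM (-1.35) and Nr1i2 from 36.2 to 27.8 RPKM (-0.38). In the mutant, 2 of the 13 were lower and none higher, beside 0.544% lower and 0.725% higher among all genes. These were Nr1i3 at 81.7 RPKM (-1.07, adjusted p = 0.0014 by limma) and Nr1h4, the bile acid receptor gene, at 39.3 against 60.6 RPKM (-0.62, adjusted p = 0.00088).

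Relatives of the 3 target genes were described in the same way. Of 16 other KLF genes, 12 were tested, 2 were higher with T3 (Klf6 by 1.20 and Klf7 by 0.91) and 2 lower (Klf1 by -0.90 and Klf15 by -0.57), with a median of 0.20. Over all genes, 24.5% were higher and 7.71% lower, with a median of 0.23. Among the 3 relatives of Hr with a JmjC domain, Jmjd1c rose by 0.76 and the others were not called. Of 10 other NF-κB and IκB genes, 7 were higher with T3 and none lower (median 0.86), beside 24.5% higher and a median of 0.23 over all genes. Relb at 1.89, Rel at 1.54 and Nfkbie at 1.15 led. None of the 10 was called in the mutant (median 0.15), beside 0.725% higher and 0.544% lower among all genes. Leukocyte and Kupffer cell markers were higher in the same libraries.

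Genes of the acute phase, which respond to inflammatory signals in liver, were higher with T3 in 4 of 14 cases and lower in none (median 1.04), a share close to the 24.5% of all genes. Saa2 went from 4.72 to 586 RPKM, Saa1 from 11.1 to 610 RPKM and Saa3 from 2.15 to 16.8 RPKM. Saa1 was highest in hyperthyroid replicate 2 (1388 RPKM), the library with the highest Bcl3 (158 RPKM), and without that library the Bcl3 difference was 3.76. This is 1 library, and a link between Bcl3 and the acute phase genes was not tested.

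Among glucocorticoid-induced genes, a group in which Klf9 is often counted, 2 of 10 were higher with T3 (Cdkn1a by 3.21 and Sgk1 by 1.43) and 2 lower (Per1 by -1.17 and Tsc22d3 by -0.94). Over all genes, 24.5% were higher and 7.71% lower with T3. Of 16 clock genes tested, 2 were higher with T3 (Arntl by 2.01 and Clock by 1.40) and 6 lower, beside the same shares of all genes. The lower ones included Bhlhe41 at -2.70 and Dbp at -1.56. Arntl was also higher in the mutant (1.87), as were 0.725% of all genes. The time of day of sampling is not in the labels, and its part in these values was not tested.

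Genes next to the 8 in the genome included 4 of 11 tested that were higher with T3, none being lower (median 0.61), beside 24.5% higher among all genes. Slc39a7, a zinc transporter gene beside Rxrb, was at 38.2 and 69.7 RPKM (0.85, adjusted p = 0.00034 by limma). Cblc, which holds the DR4 match at all 12 bases near Bcl3, was at 13.7 to 19.6 RPKM in hyperthyroid and 14.1 to 15.5 RPKM in hypothyroid WT libraries (0.16, adjusted p = 0.28 by limma). Bcam, further along from Cblc, showed a difference of 1.07 that missed the threshold (adjusted p = 0.011 by limma).

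**Figure D5:**
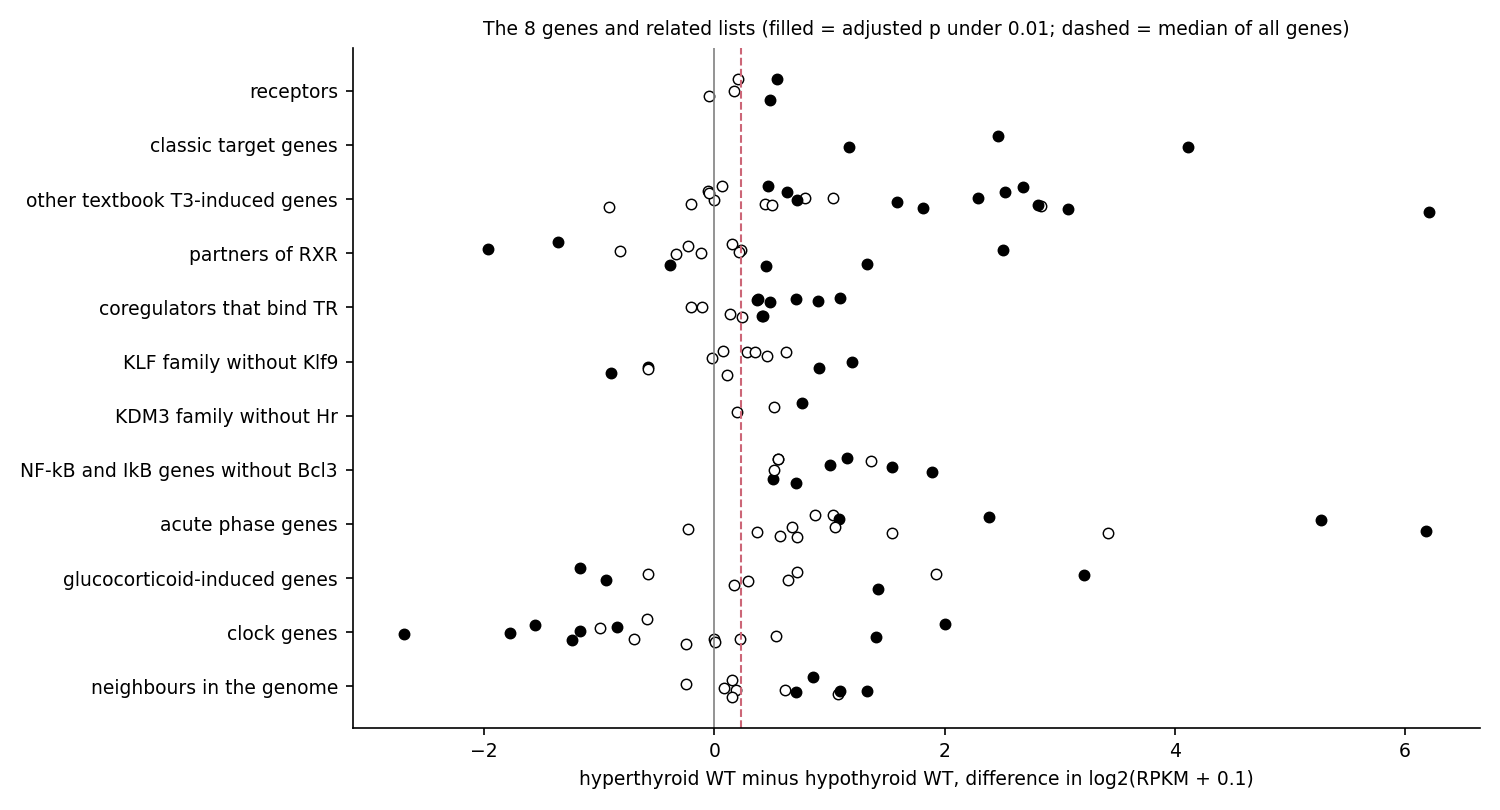
Differences in log2(RPKM + 0.1) between hyperthyroid and hypothyroid WT liver for the 8 genes (upper 2 rows) and 10 related lists, 1 point a gene, filled where the adjusted p was under 0.01 by limma, with the median of all genes (0.23) dashed. The 3 target genes lie to the right of all 5 receptors.

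For each gene, the 3 most similar genes by Pearson correlation of log2(RPKM + 0.1) over the 12 libraries were listed among genes with a mean of at least 1 RPKM. Since the libraries fall into 3 groups, a high value mostly means a like pattern over groups. Rxra was closest to Strn4 (r = 0.988), Larp1 and Hcfc1, and Bcl3 to Hs6st1 (0.985), Lrp10 and Pdp2. Klf9 was closest to Rnf220 (0.980), Clptm1l and Plxnb2, and Hr to Ccl6 (0.975), Trak1 and Tead1. Of these, the chemokine gene Ccl6 went from 1.85 to 18.0 RPKM with T3. Rxrb was closest to Bsdc1 (0.947), Tmem131 and Chchd10. The genes that were not called had weaker neighbours, with Thra closest to Cd300lg (0.922), Thrb to Elmod2 (0.886) and Rxrg to Neat1 (0.861).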

How the data were processed

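RPKM values of 12 liver poly(A) libraries were deposited by the authors, who aligned reads to mm9 with STAR and counted them per RefSeq transcript with HOMER, without given versions. Each library combined runs of 2 instrument models. The deposited regions hold positions only. Of 31370 rows, 1 without a gene name was dropped. The 8 genes and all lists were chosen with earlier results of these data known. A gene was tested when 4 or more of the 8 libraries reached 0.1 RPKM, with limma 3.58.1 (R 4.3.3; variance trend) on log2(RPKM + 0.1) of the groups compared, with Benjamini-Hochberg adjustment over all genes and a threshold of 0.01. The fit was tested on simulated data. RPKM are no counts, so no count test was run, and total depth is unknown. Named genes were the 8 genes, Ncor1, Thrsp, Dio1, the 3 most similar genes and, per list and direction, the 3 called genes with the largest difference and separate groups. Some genes that this rule names are not reported here. Bcam was named after its values were seen. Hr, too low for the fit in the mutant comparison, got an exact permutation test in each comparison. Start sites came from GENCODE M1. Sequences were read from NCBIM37 (mm9). Other settings are compared at the end.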

Additional observations from a re-analysis of the deposited data

Results flagged for a closer look

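In 2 of 33 sets of 4 libraries, the highest or lowest library stood farther from the rest than Dixon's critical value at 95% allows for the gap over the range, and chance gives about 1 in 20. For Hr in hypothyroid L-NCOR1ΔID liver, replicate 1 (0.327 RPKM) lay above 0.038 to 0.077 RPKM, with a ratio of 0.865. For the share of Rxra among RXRs in hyperthyroid WT liver, replicate 1 (88.4%) lay above 86.9 to 87.1%, with a ratio of 0.835.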

How the results depend on the processing

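Of 156 alternative values for the 9 called differences, all kept their direction and 142 their call. The 9 include Hr with T3 and Hr between hyperthyroid WT and the mutant, which passed the filter only where it was high. Rescaling by the median of gene ratios ended the T3 calls of Rxra (0.28) and Rxrb (0.34), and turned Thra (-0.030) with T3 and Thra (-0.032), Thrb (-0.019) and Rxrg (-0.15) between hyperthyroid WT and the mutant. At adjusted p under 0.05, Rxrb was called in the latter (0.38), and 6880, 601 and 5407 genes were called in the 3 comparisons (T3, mutant, hyperthyroid against mutant). Replicate numbers did not pair the libraries (correlations of deviations from -0.21 to 0.27, and not every library correlated best with its own number), and a replicate block called 45 genes in the mutant and 1642 between hyperthyroid WT and the mutant, with no change in any call of the 8 genes. Without each library in turn, the genes called numbered 67 to 187 in the mutant (175 with all, and 67 to 97 without any hypothyroid WT replicate or mutant replicate 1 or 3) and 1651 to 2672 between hyperthyroid WT and the mutant (2975 with all, 1822 and 1978 without hyperthyroid replicates 3 and 4 and 1651 without mutant replicate 3). Over the same fits, Rxrb with T3 ranged from 0.48 to 0.66, Rxrg from -0.14 to 0.044 with T3, -0.21 to 0.014 in the mutant and -0.064 to 0.17 between hyperthyroid WT and mutant, Thra from -0.068 to 0.097 and Thrb from -0.089 to 0.15 in the mutant. Between hyperthyroid WT and mutant, Klf9 ranged from 0.89 to 1.13 (adjusted p up to 0.011 without hyperthyroid or mutant replicate 3) and Hr from 1.64 to 2.19. Hr in the mutant ranged from 0.28 to 0.82. With T3, Hr could not be fitted without a hyperthyroid library. The 65 regions near the genes became 37 within 50 kb and 132 within 200 kb, and the 8 matches became 74 at 10 or more bases and 1 at all 12. The causes were not tested.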
